A study of Mus musculus with 24 samples.

Results

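The 5 keratins of simple, single-layered epithelia (Krt7, Krt8, Krt18, Krt19 and Krt20) were followed through ureter obstruction and its reversal in mouse kidney cortex. They are the keratins named in that class, taken up with earlier results of these data known, and all 5 have a row among the 14785 genes of the deposited table. Messenger RNA was sequenced after polyA selection from 24 kidneys of male C57 mice aged 8 to 9 weeks at the start, in 6 groups of 4, and the study kept 10 animals per group of which 4 were sequenced. Unilateral ureter obstruction (UUO) ties off the ureter of 1 kidney, and reversal surgery reimplants the ureter after 7 days. The groups were sham surgery (Sham), obstruction lasting 2 days (UUO2) or 7 days (UUO7), and 7 days of obstruction with reversal. The reversed groups recovered over 1 week (R1W), then 2 weeks (R2W) and 4 weeks (R4W). No genetic change or drug is named for any group, and the time at which the sham kidneys were collected is not given. The recovery groups differ from the obstructed groups in age at collection as well as in reversal. The treatment label of R4W replicate 2 says 2 weeks while its title says 4 weeks, and it was kept with R4W.

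Keratins are intermediate filament proteins that give epithelial cells mechanical strength. A filament is built from pairs of 1 type I and 1 type II chain, so neither type polymerizes alone. Krt7 and Krt8 are type II, and Krt18, Krt19 and Krt20 are type I. Krt8 and Krt18 are the primary pair of simple epithelia. Krt7 and Krt19 are found in ducts, including the collecting duct, and in the urothelium, the lining of the urinary tract. Krt20 is best known from intestinal epithelium and the surface cells of the urothelium, and has been described in injured kidney tubules.

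The genes lie in the keratin clusters of the mouse genome (mm10 coordinates as deposited). Krt7 (ENSMUSG00000023039.16) spans chr15:101411043-101430313 on the plus strand. Krt8 (ENSMUSG00000049382.9) spans chr15:101996711-102004342 on the minus strand. Krt18 (ENSMUSG00000023043.6), the type I gene that lies among the type II genes, spans chr15:102028216-102032026 on the plus strand, 23873 bases from Krt8. Krt19 (ENSMUSG00000020911.14) spans chr11:100140810-100148665 and Krt20 (ENSMUSG00000035775.2) spans chr11:99428403-99438150, both on the minus strand. All 5 are protein-coding, and the deposited table has 1 row for each gene. Keratins resemble each other in sequence, and how reads shared between them were divided is not given in the sources used here.

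RefSeq promoter sequences (GRCm38.p6, 250 bases before to 50 after the RefSeq start) were found for 4 of the 5 genes, all but Krt19. Those of Krt7 and Krt20 are shown because these genes stood at opposite ends of the recovery described below: Krt7 stayed at its obstructed level and Krt20 came back furthest. Capitals mark GC boxes (GGGCGG, or CCGCCC on the other strand) in Krt7 and a TATA box (TATAAA) in Krt20. Krt7 is read from chr15:101412153-101412452 on the plus strand and Krt20 from chr11:99438104-99438403 on the minus strand.
Krt7: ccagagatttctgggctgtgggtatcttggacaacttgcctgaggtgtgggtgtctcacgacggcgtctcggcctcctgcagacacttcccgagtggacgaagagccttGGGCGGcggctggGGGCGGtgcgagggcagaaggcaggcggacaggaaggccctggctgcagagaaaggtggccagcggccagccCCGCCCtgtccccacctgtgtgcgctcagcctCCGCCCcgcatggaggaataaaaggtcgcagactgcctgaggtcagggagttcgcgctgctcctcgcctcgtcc
Krt20: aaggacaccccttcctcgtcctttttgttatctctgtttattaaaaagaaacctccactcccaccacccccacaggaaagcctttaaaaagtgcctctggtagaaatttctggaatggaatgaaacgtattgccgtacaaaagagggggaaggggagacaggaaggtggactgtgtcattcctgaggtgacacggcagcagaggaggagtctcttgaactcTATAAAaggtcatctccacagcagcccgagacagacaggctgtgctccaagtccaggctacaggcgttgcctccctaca
Krt7 held 4 GC boxes and no TATAAA, and its RefSeq start lies inside the deposited gene span. Krt20 held 1 TATAAA at -29 from the start and no GC box. The Krt8 promoter held overlapping matches to TATAAA on both strands at -3 and -1, and Krt18 held none of the motifs searched. The AP-1 motif TGANTCA was found in 0 of the 4 windows. Searched on both strands of 32841 promoters of the same length, GGGCGG was in 35.7%, TATAAA in 13.6% and TGANTCA in 7.81%. These matches describe letters and not bound sites.

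Levels are FPKM, fragments scaled to transcript length and to library depth, a unit inferred here from the values. Sums of the 24 columns ran from 717415 to 830179. Depth implied by whole-read steps in the values was 26420000 to 49600000 fragments in 20 libraries, and no steps were found in the 4 UUO2 libraries, so their depth is unknown. This library difference coincides with the UUO2 group and cannot be told apart from it. The summed level of 8 proximal tubule markers, the main cell type of cortex, was 5689 to 6676 FPKM in sham, 1491 to 1925 in UUO7 and 3103 to 4130 in R4W. All 8 were called lower in UUO7 than in sham and higher in R4W than in UUO7, beside 17.8% and 17.6% of all genes, and their part in the keratin levels was not tested. Sham replicate 2 stood apart from the other sham kidneys: its 6 urothelium markers summed to 102.24 FPKM against 6.24 to 10.22 in the other 3. Its principal cell markers were also the highest of the group, at 953.03 FPKM where the group's median was 475.3, and its 5 measured adipocyte markers summed to 291.3 FPKM against 40.4 to 48.5. It was the highest sham kidney for all 5 keratins, and values against sham are given without it below where leaving it out moves them by more than 1.5 times or changes the call of a keratin or the count of a list. In bulk tissue a change in the number of cells of a type and a change in RNA per cell cannot be told apart.

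All 5 keratins were higher after 7 days of obstruction than after sham surgery, and all 5 were still higher 4 weeks after reversal. The rise was 2.01-fold for Krt7, 3.63-fold for Krt8, 9.19-fold for Krt18, 20.7-fold for Krt19 and 206-fold for Krt20, as ratios of group means. The 3 type I members, which stood lowest in sham, had the largest folds. After reversal the means separated: Krt7 stood at its UUO7 level, Krt8, Krt18 and Krt19 stood at intermediate means, and Krt20 had fallen most. In UUO7 against sham limma called 5 of 5 higher, where 77.9% of all genes tested were called, 60.1% higher and 17.8% lower.

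**Figure D1:**
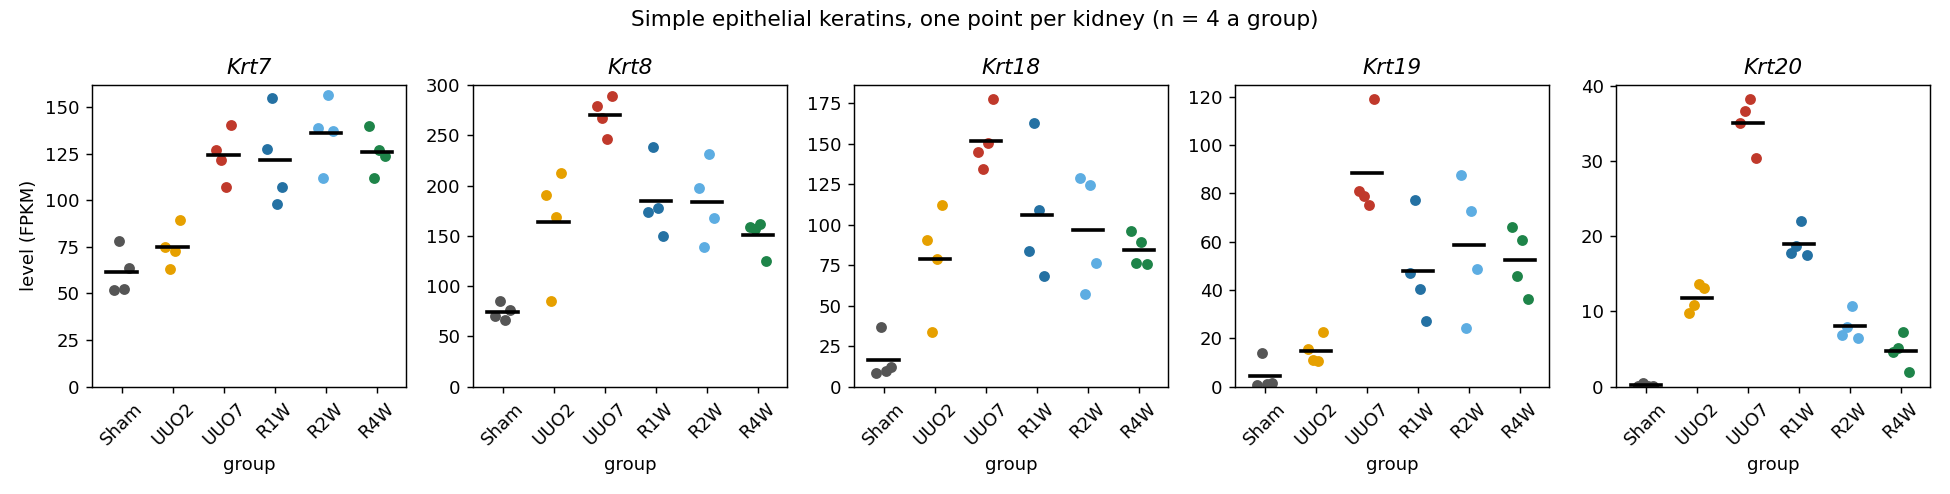
FPKM of the 5 keratins (vertical axes from 0, each panel on its own scale) in the 6 groups (horizontal axes), with 1 point per kidney and a bar at the mean of 4. The Krt7 means lie between 122 and 136 FPKM from UUO7 to R4W, whereas Krt20 peaks at 35.1 FPKM in UUO7 and comes down to 4.72 in R4W.

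Krt8, the type II partner of the primary pair, stood at the highest mean level of the 5 in sham. It was at 70.52, 85.23, 66.25 and 76.07 FPKM in sham replicates 1 to 4 and at 279.12, 267.31, 245.89 and 289.01 in UUO7. The lowest UUO7 kidney was far above the highest sham kidney. By mean level Krt8 moved from rank 1322 among the 14785 genes to rank 401. On log2(FPKM + 1), the scale of all log2 differences below unless another is named, the difference was 1.85 (SE 0.21; limma adjusted p = 7.35e-08). UUO2 kidneys held 190.67, 85.34, 168.46 and 212.19 FPKM. Replicate 2 lay at the sham level and the other 3 at more than double the sham mean of 74.5, so the group ranged from sham-like to well above it (log2 difference 1.06; limma adjusted p = 0.000276). R1W kidneys ranged from 149.35 to 238.00 FPKM and R2W kidneys from 139.20 to 231.08, all above sham. At 4 weeks the kidneys held 158.46, 156.61, 161.73 and 125.43 FPKM, below every UUO7 kidney and above every sham kidney. Against UUO7 this was a log2 difference of -0.84 (limma adjusted p = 0.00237), and against sham 1.00 (limma adjusted p = 0.000294).

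Krt18, the type I partner of Krt8, was scarce in 3 of 4 sham kidneys, with 8.27, 36.49, 9.38 and 12.01 FPKM in replicates 1 to 4. It reached 144.99, 134.62, 150.40 and 177.83 FPKM in UUO7. The ranges did not overlap, and sham replicate 2 stood well above the other sham kidneys. The log2 difference was 3.37 (SE 0.39; limma adjusted p = 1.02e-07), and without sham replicate 2 it was 3.82, with a ratio of means of 15.4 in place of 9.19. UUO2 kidneys held 90.73, 33.55, 78.71 and 112.33 FPKM, with replicate 2 again the lowest. R1W and R2W kidneys spread widely, from 68.16 to 163.04 FPKM and from 57.10 to 129.07. R4W kidneys held 96.00, 76.25, 89.59 and 75.46 FPKM. All 4 were below the lowest UUO7 kidney, yet the log2 difference of -0.84 did not pass (limma adjusted p = 0.0782), while the difference of 2.53 from sham did (limma adjusted p = 1.22e-05).

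Krt19, a small type I keratin without the usual tail domain, was near 1 FPKM in 3 sham kidneys, with 0.79, 14.09, 0.98 and 1.28 FPKM in replicates 1 to 4. It reached 81.10, 78.82, 75.31 and 118.98 FPKM in UUO7. UUO2 lay between, at 15.43, 11.03, 10.76 and 22.47 FPKM. Only sham replicate 2 reached the range of UUO2, and no sham or UUO2 kidney came near UUO7. The log2 difference between UUO7 and sham was 4.73 (SE 0.51; limma adjusted p = 4.25e-08) and 5.45 without sham replicate 2, with a ratio of means of 87.1 in place of 20.7. R1W kidneys ranged from 27.29 to 77.12 FPKM and R2W kidneys from 24.40 to 87.76. R4W kidneys held 66.20, 45.87, 60.88 and 36.17 FPKM, still above sham by 3.96 (limma adjusted p = 1.39e-06). The difference from UUO7 was -0.76 and did not pass (limma adjusted p = 0.225).

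Krt20 was close to absent in sham, at 0.12, 0.46, 0.08 and 0.02 FPKM in replicates 1 to 4. After 2 days it was at 9.83, 10.85, 13.61 and 13.08 FPKM, and after 7 days at 35.09, 36.59, 38.21 and 30.45. The 3 groups did not overlap, and the kidneys within UUO2 and UUO7 lay close together. The log2 differences from sham were 3.46 in UUO2 (limma adjusted p = 1.04e-10) and 4.96 in UUO7 (SE 0.21; limma adjusted p = 7.1e-13). Because the sham level is so low, the ratio of means depends on 1 kidney: 206 with sham replicate 2 and 478 without it. R1W kidneys held 17.77, 18.71, 22.07 and 17.45 FPKM, R2W kidneys 6.89, 7.91, 10.75 and 6.50, and R4W kidneys 4.55, 5.10, 7.28 and 1.96. R1W lay below UUO7 and above R2W without overlap, while R2W and R4W overlapped. Krt20 in R4W was lower than in UUO7 by a log2 difference of -2.74 (limma adjusted p = 2.94e-08) and remained above sham by 2.21 (limma adjusted p = 3.24e-08).

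Krt7, the type II keratin of ducts and urothelium, behaved otherwise. Sham kidneys held 52.04, 78.28, 52.47 and 63.74 FPKM and UUO2 kidneys 74.72, 63.14, 72.55 and 89.51. These groups overlapped, and the log2 difference of 0.29 did not pass (limma adjusted p = 0.111), although it was 0.41 with limma adjusted p = 0.0263 when sham replicate 2 was left out. UUO7 kidneys held 126.95, 121.58, 107.25 and 140.30 FPKM, all above every UUO2 and sham kidney. R1W kidneys held 127.55, 155.03, 97.93 and 106.89 FPKM, R2W kidneys 138.68, 111.78, 156.64 and 137.38, and R4W kidneys 140.00, 111.91, 126.74 and 123.97. The 4 groups from UUO7 onward overlapped throughout. R4W differed from UUO7 by 0.02 (SE 0.15; limma adjusted p = 0.921) and from sham by 1.03 (limma adjusted p = 5.06e-06).

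After 2 days 4 of 5 members were called higher than sham, all but Krt7, where 49.2% of all genes were called and 32.3% higher. Between 2 and 7 days all 5 rose further, where 66.7% were called and 52% higher. Krt19 gained most in that interval, with a log2 difference of 2.53 (limma adjusted p = 0.000199), followed by Krt20, which went from a mean of 11.8 to 35.1 FPKM (limma adjusted p = 3.56e-06) and Krt18 with 1.06 (limma adjusted p = 0.0211). The Krt18 call was lost when UUO2 replicate 2, the low kidney, was left out (log2 difference 0.70; limma adjusted p = 0.108), and when UUO7 replicate 4 was left out (0.98; 0.0522). In the authors' deposited table Krt7 has a log2 fold change of 0.39 from sham to UUO2 with an adjusted p of 0.0422, and Krt19 one of 1.68 with an adjusted p of 0.15. From UUO2 to UUO7 the authors' deposited table gives 0.35 for Krt8 (adjusted p 0.2) and 0.59 for Krt18 (adjusted p 0.07), so these early calls differ between that table and the limma fit. At 1, 2 and 4 weeks of recovery all 5 stayed above sham. The percentages of all genes called were 74.1 in R1W, 69 in R2W and 66.4 in R4W, and those called higher were 59.4, 56.1 and 54.8, with 11.6% called lower in R4W. As ratios of means, R4W stood above sham by 5.10 for Krt18, 12.2 for Krt19 and 27.8 for Krt20, and by 8.53, 51.4 and 64.4 without sham replicate 2. Comparisons with sham share the 4 sham kidneys.

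FPKM divides by the whole library, and the median gene was itself higher than sham by 0.42 in UUO7, 0.37 in R1W, 0.32 in R2W, 0.30 in R4W and 0.09 in UUO2 on the log2 scale. After each library was rescaled by the median of its gene ratios to geometric means over libraries, these medians were between -0.01 and 0.01. The UUO7 differences became 0.53 for Krt7, 1.37 for Krt8, 2.91 for Krt18, 4.36 for Krt19 and 4.74 for Krt20. The same 5 members were called higher in UUO7, R1W, R2W and R4W against sham after rescaling. Genes called higher then made up 36.5% in UUO7, 33.7% in R1W, 31.1% in R2W and 28.9% in R4W. Between 2 and 7 days the rescaled Krt18 difference of 0.71 was no longer called (limma adjusted p = 0.0951), which left 4 of 5 members, beside 30% of all genes called higher.

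Krt20 was lower in every R1W kidney than in every UUO7 kidney. In R1W against UUO7 limma called 1 of 5 members lower, Krt20 by a log2 difference of -0.85 (limma adjusted p = 0.0119), where 14.5% of all genes were called and 8.04% lower. The Krt20 call was lost with a pseudocount of 0.1 (limma adjusted p = 0.0968), at an adjusted p under 0.01 and when the log2 difference had to reach 1 in size. The Krt8 difference was -0.57 (limma adjusted p = 0.0685). It passed without R1W replicate 2, its highest kidney at 238.00 FPKM (-0.70; limma adjusted p = 0.0374), in a fit on the 2 groups alone (limma adjusted p = 0.0256) and without the UUO2 kidneys (limma adjusted p = 0.0128). From UUO7 to R1W the authors' deposited table gives -0.87 for Krt20, -0.54 for Krt8 and -0.84 for Krt19. Their adjusted p-values there are 6.17e-10, 5.09e-05 and 0.00688. Krt18, at -0.52 (adjusted p 0.0528), and Krt7, at -0.01 (adjusted p 0.962), do not pass in it. Which member declined first was therefore not settled. By 4 weeks 2 of 5 were lower than in UUO7, Krt8 and Krt20, where 48.4% were called, 30.8% lower and 17.6% higher. Between R1W and R4W only Krt20 was called, with a log2 difference of -1.89 (limma adjusted p = 7.28e-05), where 19.1% were called and 14.1% lower. Against UUO7, Krt18 was also called lower in R4W when the pseudocount was 10 (-0.78, limma adjusted p = 0.0456). A fit on the UUO7 and R4W kidneys alone called 4 of 5 lower, adding Krt18 (limma adjusted p = 0.000419) and Krt19 (limma adjusted p = 0.0155), where 52.2% of all genes were called and 33% lower. The authors' deposited table likewise gives adjusted p-values of 7.59e-12 for Krt18 and 0.00159 for Krt19 in this comparison, with log2 fold changes of -0.78 and -0.61. For Krt7 the authors' deposited table gives -0.04, with an adjusted p of 0.796.

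Set on a common scale, the part of the UUO7 rise over sham still present at 4 weeks was 103% ± 18.5 (SD, n = 4) for Krt7, 57.0% ± 16.3 for Krt19, 50.1% ± 7.48 for Krt18, 38.8% ± 8.62 for Krt8 and 13.0% ± 6.26 for Krt20. This share takes the sham and UUO7 means as fixed, so its SD covers only the R4W kidneys. Mean Krt20 stepped down at each time, from 53.9% at 1 week through 22.5% at 2 weeks. Mean Krt18 also came down at each time, from 66.1% through 59.2%, but its kidneys overlapped between all 3 recovery groups. Mean Krt19 was 51.9% at 1 week and 64.2% at 2 weeks, so it did not come down at each time. The order of the group means was UUO7, R1W, R2W, UUO2, R4W and sham for Krt8. In that order R1W, R2W, UUO2 and R4W overlapped each next group, while UUO7 and sham stood clear of their neighbours. For Krt20 the order was UUO7, R1W, UUO2, R2W, R4W and sham, and overlaps joined only UUO2 with R2W and R2W with R4W.

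**Figure D2:**
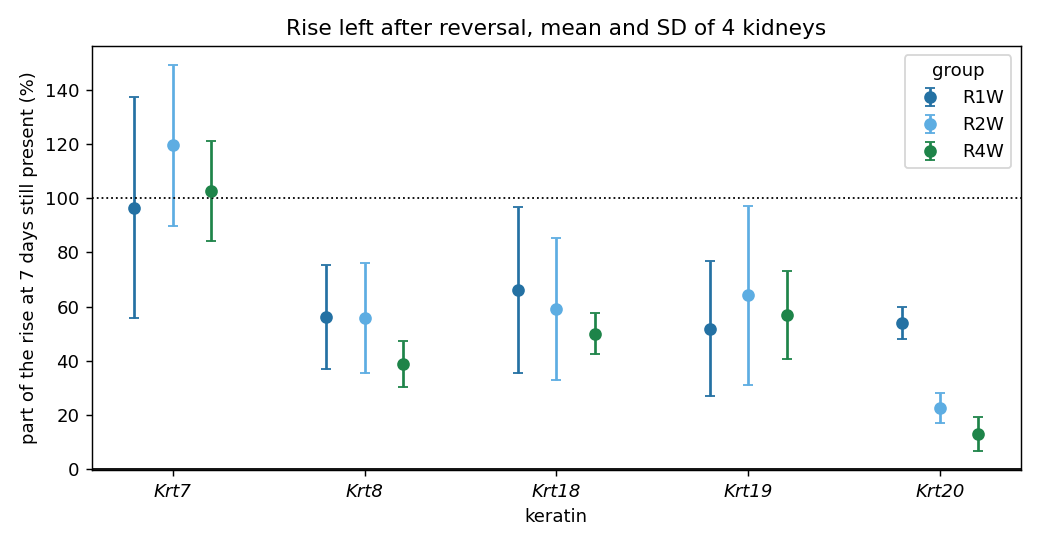
Part of the rise from sham to UUO7 still present (percent, vertical axis) for each keratin (horizontal axis) in R1W, R2W and R4W. Points are means and bars SD over 4 kidneys; the dotted line marks 100%, where Krt7 sits, and Krt20 is at 13.0% in R4W.

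The summed level of the 5 keratins was 157 ± 39.7 FPKM in sham, 345 ± 104 in UUO2, 670 ± 61.3 in UUO7, 479 ± 121 in R1W, 483 ± 117 in R2W and 418 ± 46.7 in R4W (SD, n = 4). Its make-up changed as well as its size. Krt7 and Krt8 made up 39.6% and 48.6% of it in sham, with Krt18 at 9.60%, Krt19 at 2.19% and Krt20 at 0.0951%. Without sham replicate 2, where Krt19 was 6.57% of the sum, the sham means were 7.13% for Krt18, 0.731% for Krt19 and 0.0554% for Krt20. In UUO7 the type I share had grown: Krt18 made up 22.7%, Krt19 13.1% and Krt20 5.30%. At 4 weeks Krt18 and Krt19 were still at 20.2% and 12.4%, while Krt20 was at 1.11%.

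Ratios within a library do not depend on how libraries are scaled, apart from the constant added for the tests below. The ratio of summed type I to summed type II FPKM was 0.143 ± 0.113 in sham, 0.699 ± 0.0648 in UUO7, then 0.509 ± 0.0517 in R4W (SD, n = 4). Sham replicate 2 was at 0.312 and the other 3 sham kidneys at 0.0749 to 0.0952, with a mean of 0.0860. In all 15 ratio tests were run, 5 ratios in 3 comparisons, each a two-sided exact permutation test of 4 against 4 kidneys on log2 ratios with 0.1 added to each level. The smallest p this design allows is 0.0286, which became 0.0357 after adjustment, and 12 of the 15 reached it. The 3 comparisons share their groups, so the tests are not independent of each other.

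The Krt18 to Krt8 ratio was 0.211 ± 0.146 in sham, 0.563 ± 0.0592 in UUO7, then 0.562 ± 0.0554 in R4W (SD, n = 4). The sham value was 0.428 in replicate 2 and 0.117 to 0.158 in the other 3, whose mean was 0.139. The partner genes were thus nearer to parity in UUO7 than in sham, and the ratio at 4 weeks overlapped that at the peak. The log2 difference between R4W and UUO7 was -0.0002 (exact p = 1), against 1.60 between UUO7 and sham (exact p = 0.0286), which was 2.01 without sham replicate 2 (exact p = 0.0286). Krt19 to Krt8 was at 0.326 in UUO7, then 0.344 in R4W, with a log2 difference of 0.08 between them (exact p = 0.83). Its sham mean of 0.0520 rested on replicate 2, at 0.165, since the other 3 sham kidneys held 0.0112 to 0.0168, with a mean of 0.0143. The log2 difference between UUO7 and sham was 3.52 with all sham kidneys and 4.38 without that kidney (exact p = 0.0286 for each).

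The Krt7 to Krt8 ratio went the other way and came back. It was 0.822 ± 0.0764 in sham, 0.458 ± 0.0204 in UUO7, then 0.843 ± 0.119 in R4W (SD, n = 4). The log2 difference was -0.84 between UUO7 and sham and 0.87 between R4W and UUO7 (exact p = 0.0286 for each). R4W and sham overlapped, with a difference of 0.03 (exact p = 0.8), although each gene alone stood about 2-fold above sham at that time. In UUO2 the mean was 0.496, with 1 kidney, replicate 2, at 0.740 and the others at 0.392 to 0.431. Krt20 to Krt8 was 0.00214 in sham (0.00106 without replicate 2), 0.131 in UUO7, then 0.0305 in R4W. On the log2 scale R4W differed from UUO7 by -2.15 (exact p = 0.0286) and from sham by 3.26 (exact p = 0.0286). The size of the difference from sham depends on the added 0.1, since Krt20 was at 0.02 to 0.12 FPKM in 3 sham kidneys.

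**Figure D3:**
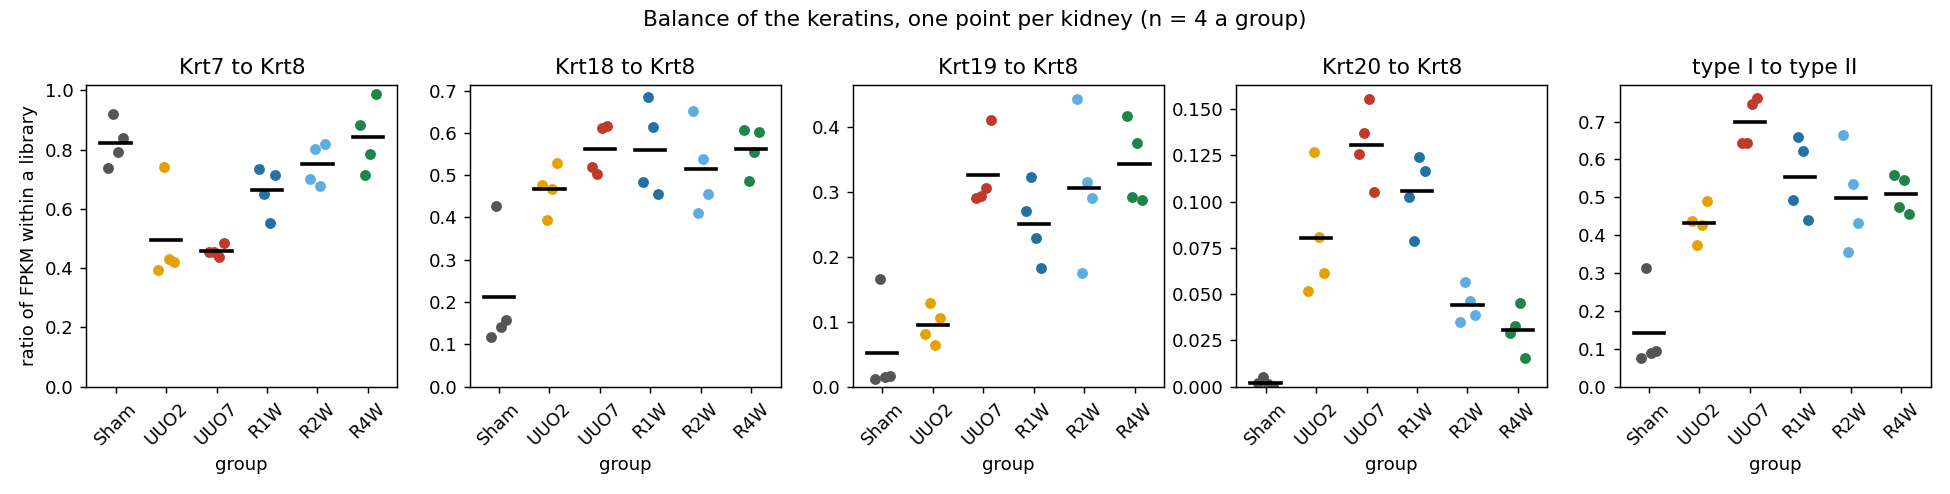
Ratios of keratin levels within each library (FPKM over FPKM, vertical axes from 0) in the 6 groups (horizontal axes), 1 point per kidney with a bar at the mean of 4. Krt18 to Krt8 stays at the UUO7 level of 0.563 through R4W, Krt7 to Krt8 is back at 0.843, and sham replicate 2 is the high sham point in the Krt18, Krt19 and type I panels.

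Markers of the urothelium moved with part of this pattern. The listed markers include uroplakins, the membrane proteins of its surface cells, and Psca and Gata3, and 6 of 8 have a row. Their summed level ranged over 6.24 to 102.24 FPKM in sham, 6.85 to 12.5 in UUO2, 37.4 to 69.7 in UUO7, 28.3 to 127 in R1W, 36.8 to 140 in R2W and 79.2 to 258 in R4W. Of the 6, limma called 0 higher in UUO2 against sham, 3 in UUO7, then 6 in R4W, and 4 were higher in R4W than in UUO7. Of all genes, 32.3% were called higher in UUO2, 60.1% in UUO7 and 54.8% in R4W against sham, and 17.6% in R4W against UUO7. The UUO7 count rested on single kidneys: it was 6 without sham replicate 2, where 60.2% of all genes were called higher, and 1 without sham replicate 1, sham replicate 3 or UUO7 replicate 4. In UUO2 0 of the 6 also had an unadjusted p under 0.05. After rescaling 0 of the 6 were called in UUO7 against sham, beside 36.5% of all genes higher, with 2 higher at an unadjusted p under 0.05. The uroplakin Upk3a was at 0.29, 10.24, 0.45 and 0.81 FPKM in sham, at 0.04, 0.52, 0.00 and 0.61 in UUO2 and at 34.23, 10.87, 32.75 and 18.97 in R4W.

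In UUO2 the urothelium markers stayed within 6.85 to 12.5 FPKM, and 3 sham kidneys held 6.24 to 10.22. Against those 3 sham kidneys, mean Krt18 in UUO2 was 7.97-fold higher, Krt19 14.7-fold, Krt20 161-fold, Krt8 2.31-fold and Krt7 1.34-fold. Against all sham kidneys the ratios of means were 4.77, 3.48, 69.7, 2.20 and 1.22 in the same order. Within groups, the kidney with the highest urothelium sum was also the highest for Krt18 in 5 of 6 groups, for Krt19 in 5, for Krt7 in 4, for Krt8 in 3 and for Krt20 in 1. Of the other lists, the highest principal cell kidney and the highest mesothelium kidney were each the highest for Krt18 in 4 groups, for Krt19 in 4 and for Krt7 in 3. The highest intercalated cell kidney matched in 1 group for each of Krt7, Krt8, Krt18 and Krt19, and in 2 for Krt20. The lowest urothelium kidney was the lowest for Krt18 in 4 groups and for Krt19 and Krt7 in 3. For principal cells these counts were 1, 1 and 2, and for mesothelium 1, 0 and 1. The part of urothelium markers in the keratin levels, in UUO2 or in later groups, was not tested.

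Markers of injured tubule cells, such as Havcr1, Lcn2 and Vcam1, had another time course. All 8 were called higher than sham in UUO2, UUO7, R1W, R2W and R4W, beside 32.3%, 60.1%, 59.4%, 56.1% and 54.8% of all genes. Their summed level was 646 to 1097 FPKM in sham, 18040 to 29137 in UUO2, 19393 to 21757 in UUO7 and 3194 to 4266 in R4W. Most of the sham sum was Spp1, at a mean of 480 FPKM. Havcr1 was at 1.91 FPKM in sham, Lcn2 at 6.43 (3.19 without replicate 2) and Vcam1 at 1.75. The sum and its kidney matches therefore need not follow these 3 genes. The UUO2 and UUO7 sums overlapped, with 4 of the 8 markers called higher in UUO7 than in UUO2, where 52% of all genes were. That count was 2 without UUO2 replicate 1, UUO7 replicate 1 or UUO7 replicate 4, and 2 higher and 1 lower after rescaling. For all 5 keratins the UUO2 and UUO7 groups did not overlap. The highest injured tubule kidney was also the highest for Krt20 in 4 of 6 groups, for Krt7 and Krt8 in 3 and for Krt18 and Krt19 in 2. The lowest kidney matched for Krt8 in 4 groups, for Krt18 in 3 and for Krt7, Krt19 and Krt20 in 2. Mesothelium markers, from the covering layer of the kidney and also a keratin source, summed to 39.2 to 45.1 FPKM in sham, 30.3 to 37.8 in UUO7 and 35.6 to 43.9 in R4W, with 4 of 6 measured. Most of that sum was Gpm6a, while the defining marker Msln was at 0.432 FPKM in sham (1.47 in replicate 2 and 0.06 to 0.11 in the others), 7.67 in UUO7, then 2.04 in R4W. The other measured markers had higher means after reversal, Upk3b with means of 3.34 FPKM in UUO7 and 7.20 in R4W, Wt1 with 5.02 and 7.53 and Gpm6a with 17.2 and 23.8, of which limma called Wt1 and Gpm6a. Against sham 2 of the 4 were called higher and 1 lower in UUO7, and 3 higher and 1 lower in R4W. Without sham replicate 2 there were 3 higher in UUO7. Of all genes 60.1% were called higher and 17.8% lower in UUO7, and 54.8% and 11.6% in R4W.

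Principal cells of the collecting duct, where Krt7, Krt8, Krt18 and Krt19 are normally found, were followed by 8 markers. Their sum was 389 to 953 FPKM in sham, 302 to 403 in UUO7 and 635 to 1280 in R4W. Of the 8, 4 were called lower in UUO7 against sham and 4 higher in R4W, where 17.8% and 54.8% of all genes were called in those directions. After rescaling 6 were lower in UUO7 and 0 higher in R4W, beside 36.5% and 28.9% of all genes. The UUO7 count of 4 was 2 without sham replicate 4, UUO7 replicate 1 or UUO7 replicate 3, and 2 lower and 1 higher without sham replicate 2. The R4W count of 4 was 6 without sham replicate 2. The sums in sham and UUO7 overlapped. Adipocyte markers, a sign of tissue from outside the cortex, summed to 62.5 to 1644 FPKM in R4W, highest in replicate 1, which was also the R4W kidney with the most Krt7, Krt18 and Krt19. In sham the kidney with the highest adipocyte sum, replicate 2, was likewise the highest for these keratins. Their part in these levels was not tested.

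**Figure D4:**
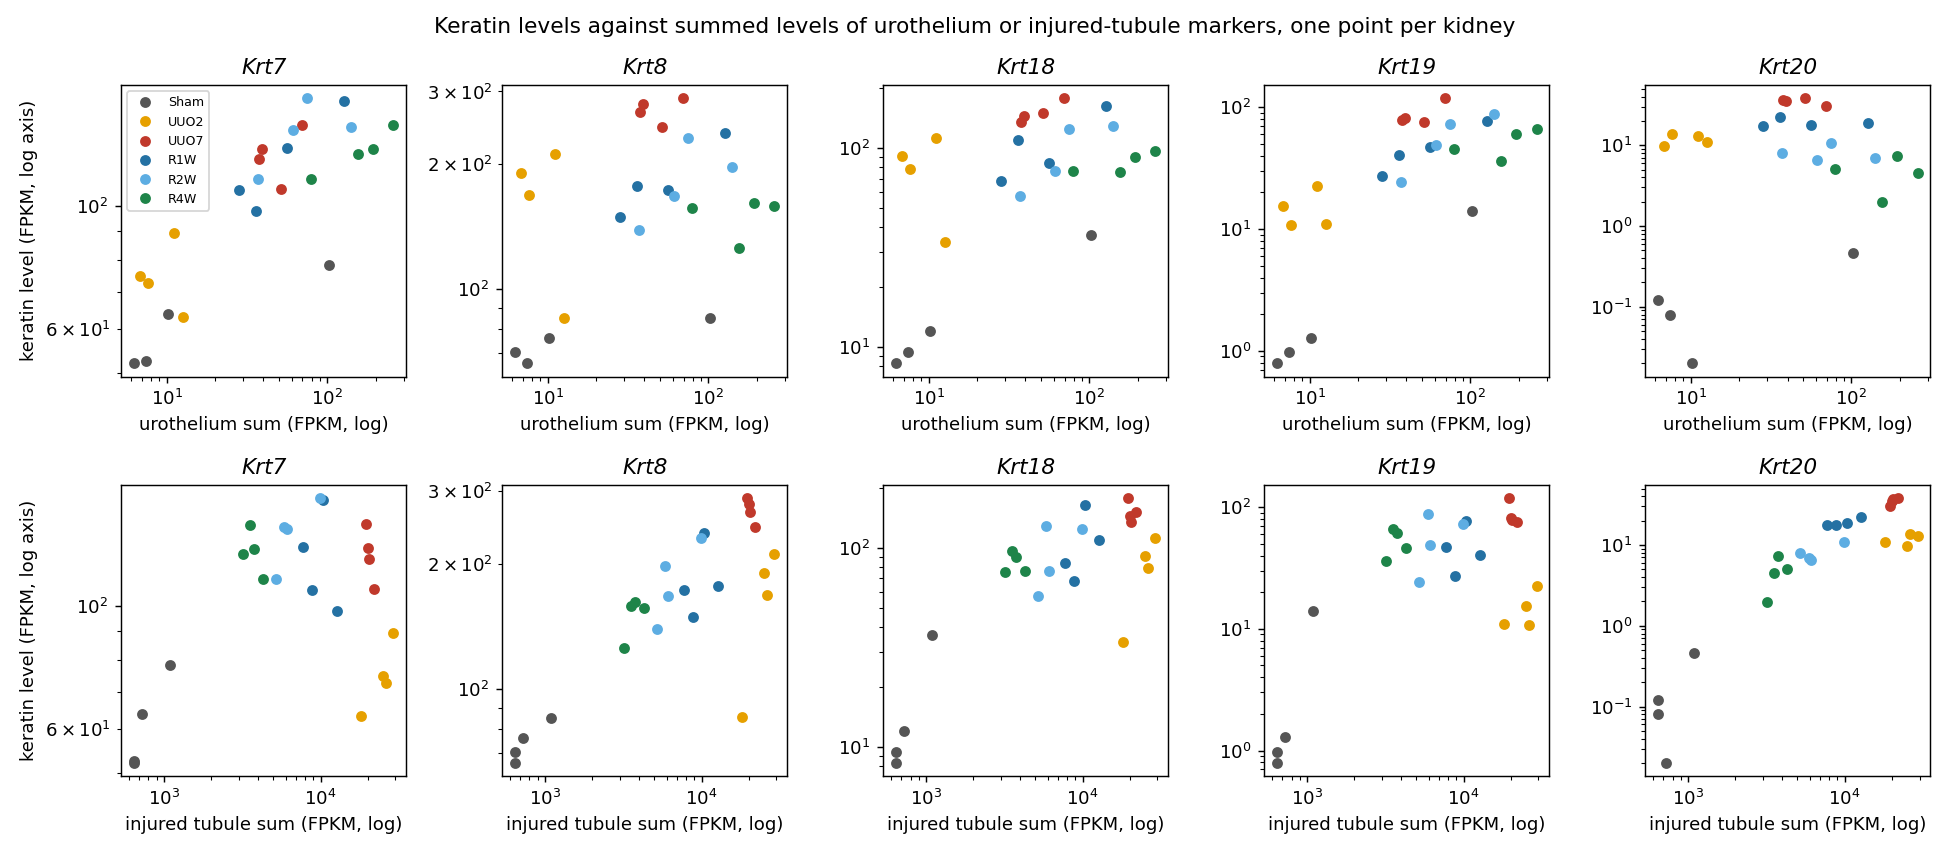
Each keratin (FPKM, vertical log axes) against the summed FPKM of 6 urothelium markers (upper row) or 8 injured tubule markers (lower row; horizontal log axes), 1 point per kidney, coloured by group. UUO2 kidneys lie at low urothelium sums (6.85 to 12.5 FPKM) and high injured tubule sums, and sham replicate 2 lies at 102.24 FPKM of urothelium markers.

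The stratified and other keratins give the comparison within the family. Of these, 7 have a row: Krt5, Krt10, Krt14, Krt15, Krt17, Krt23 and Krt80. In UUO2 against sham limma called 0 of the 7, where 49.2% of all genes were called and 32.3% higher, and 1 when UUO2 replicate 2 was left out. At an unadjusted p under 0.05 there were 1 higher (Krt17) and 2 lower, and the same numbers were called after rescaling. In UUO7 against sham 4 of 7 were called higher and in R4W 6 of 7, all but Krt10, beside 60.1% and 54.8% of all genes. Without sham replicate 2 there were 5 in UUO7, adding Krt23, and 6 in R4W. After rescaling the same keratins were called higher in UUO7 and in R4W, beside 36.5% and 28.9% of all genes. Krt80 was then also called lower in UUO7 (-0.62, limma adjusted p = 0.0342), where 36.5% of all genes were lower. Krt5 and Krt14, the basal cell pair of stratified epithelia, were at 1.01 and 0.26 FPKM in sham, 6.12 and 8.06 in UUO7, and 13.6 and 6.89 in R4W. Krt15, another basal keratin, was at 1.04, 10.9 and 18.2 FPKM in the same groups. These sham means rested on replicate 2, which held 3.79 FPKM of Krt5, 0.86 of Krt14 and 3.32 of Krt15. The other 3 sham kidneys had means of 0.083, 0.06 and 0.277, so the ratio of R4W to sham means for Krt5 was 13.4 with that kidney and 163 without it. Their kidneys varied widely in R4W: Krt5 was at 24.03, 5.81, 15.49 and 8.90 FPKM.

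Krt17, a stress-induced keratin of skin appendages, was the only one of the 7 called lower in R4W than in UUO7, where 30.8% of all genes were lower and 17.6% higher. It was at 0.02 FPKM in sham, 4.06 in UUO7, then 0.74 in R4W, with a log2 difference of -1.53 between R4W and UUO7 (limma adjusted p = 3.29e-05). Krt80 was at 2.55, 1.94 and 5.83 FPKM and was the only one of the 7 called higher in R4W than in UUO7 (1.24; limma adjusted p = 0.00117). Krt5, Krt15 and Krt23 also had higher means in R4W than in UUO7, but did not pass.

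Keratin filaments attach to desmosomes and hemidesmosomes through linker proteins, of which 11 of 13 listed have a row. In UUO7 against sham 7 were higher and 2 lower, and in R4W 8 were higher and 1 lower, beside 60.1% and 54.8% of all genes called higher. Without sham replicate 2 the R4W count was 9 higher and 1 lower. After rescaling the counts were 5 and 3 in UUO7, and 5 and 1 in R4W, where 36.5% and 31.1% of all genes were then called lower. Jup, plakoglobin of the desmosome plaque, was at 47.8 ± 6.94 FPKM in sham, 130 ± 23.4 in UUO7, then 73.1 ± 7.85 in R4W (SD, n = 4). Plec, plectin, which links filaments to other structures, was at 4.87, 9.74 and 11.3 FPKM. Dsg2, a desmosomal cadherin, was at 1.84, 4.76 and 4.61. Dst, dystonin, a linker whose epithelial form anchors keratin at hemidesmosomes, fell to 21.5 FPKM in UUO7 from 45.1 and was at 46.2 in R4W.

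Of 11 genes for proteins that bind keratins or act on them (14-3-3 proteins, kinases, chaperone partners and caspases), 11 were called higher in UUO7 against sham and 10 in R4W, beside 60.1% and 54.8% of all genes. Without sham replicate 2 the counts were 10 and 9. After rescaling 4 were higher and 2 lower in UUO7, and 2 higher and 1 lower in R4W, beside 36.5% and 28.9% of all genes called higher, so the rescaled shares of the list lay near or below those of all genes. Sfn, the epithelial 14-3-3 protein that binds phosphorylated Krt18 and Krt17, stood out in either scaling. It was at 5.16 ± 2.85 FPKM in sham, 69.9 ± 3.08 in UUO7, then 21.8 ± 4.54 in R4W (SD, n = 4), with log2 differences from sham of 3.62 (limma adjusted p = 9.19e-10) and 1.97 (limma adjusted p = 8.51e-06).

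Of the other intermediate filament genes 6 of 14 listed have a row, and all 6 were called higher in UUO7 and in R4W against sham, beside 60.1% and 54.8% of all genes. After rescaling 6 were higher in UUO7 and 4 in R4W, beside 36.5% and 28.9%. Vim, vimentin of mesenchymal and injured tubule cells, was at 18.0 ± 4.05 FPKM in sham, 168 ± 10.6 in UUO7, then 150 ± 30.3 in R4W (SD, n = 4). Des (desmin of muscle-like cells) and Nes (nestin) were at 2.51 and 3.04 FPKM in sham, 14.5 and 16.6 in UUO7, and 11.1 and 14.4 in R4W. None of these 3 was called between R4W and UUO7, whereas the nuclear lamin genes Lmnb1 and Lmna were lower in R4W than in UUO7, by log2 differences of -0.83 and -0.71 (limma adjusted p = 0.000342 and 0.000105).

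Among 12 of 14 listed epithelial transcription factors, 7 were higher and 1 lower in UUO7 against sham, and 9 higher and 0 lower in R4W (also 0 lower at an unadjusted p under 0.05). With 60.1% of all genes called higher in UUO7 and 54.8% in R4W, the UUO7 share was near that of all genes. Without sham replicate 2 the R4W count was 10 higher. After rescaling the counts were 6 and 3 in UUO7, and 8 and 2 in R4W, beside 36.5% and 28.9% called higher. Elf3, an epithelial ETS factor, was at 13.1 ± 5.68 FPKM in sham, 74.7 ± 8.71 in UUO7, then 43.9 ± 8.10 in R4W (SD, n = 4). Klf4 was at 1.86, 9.77 and 8.87 FPKM. Sox9, expressed in regenerating tubules, was at 0.168 FPKM in sham, 13.4 in UUO2, 6.17 in UUO7, then 1.98 in R4W. Of the AP-1 subunits, 6 of 7 have a row and all 6 were higher in UUO7 and in R4W against sham, with 6 and 5 after rescaling. Junb was at 14.8, 115 and 70.7 FPKM in sham, UUO7 and R4W. Fosl1 was at 0.285, 4.39 and 0.983, and was lower in R4W than in UUO7 by a log2 difference of -1.44 (limma adjusted p = 5.86e-07). Over these lists, the median log2 difference in UUO7 against sham was 0.66 for the linkers, 0.61 for the keratin-binding proteins, 2.01 for the other filaments, 0.67 for the transcription factors and 2.00 for AP-1, beside 3.37 for the 5 keratins and 0.42 for all genes.

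The genes whose levels ran most like each keratin were found by Pearson's r of log2(FPKM + 1) over the 24 libraries, as a description in which the group differences carry most of the likeness. For Krt18 they were Cldn4, a tight junction protein (0.990), Myof (0.981) and Cd24a (0.980). For Krt19 they were S100a6, a calcium-binding protein (0.984), Tmem184b (0.981) and Jak3 (0.979). For Krt8 they were Dok4 (0.981), Sbno2 (0.981) and Pdgfb, a growth factor chain (0.979). For Krt7 they were Ahnak (0.972), Ssh3 (0.968) and Gtpbp2 (0.967), and for Krt20 Smpdl3b (0.968), Cp, ceruloplasmin (0.967), and Rpl4 (0.967). No gene was named for more than 1 keratin. Cldn4 had 17.0, 71.5, 181 and 79.1 FPKM in sham, UUO2, UUO7 and R4W, against 16.5, 78.8, 152 and 84.3 for Krt18, and without sham replicate 2 the sham means were 11.2 and 9.89. Ahnak went from 9.95 FPKM in UUO2 to 18.0 in UUO7 and was at 18.3 in R4W, a level held as for Krt7. Such high values were common: between 538 genes for Krt20 and 1066 for Krt19 had r of at least 0.9. Among the members, r was 0.945 for Krt8 with Krt18 and 0.943 for Krt18 with Krt19, and lowest, 0.570, for Krt7 with Krt20.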

How the data were processed

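The authors deposited one table with a value per gene and library, and the submitters' processing notes name Bowtie2, RSEM, FastQC, DESeq2 and the build mm10, with no versions or roles. The deposited header gives no unit, and FPKM was inferred here from column sums and whole-read steps. No gene of the deposited table has a mean below 1 FPKM. The deposited log2 fold changes and adjusted p-values are the authors' own, with base and direction inferred from the sample columns.

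The 5 keratins and all gene lists were chosen with earlier results of these data known. Gene tests used R 4.3.3 and its package limma 3.58.1, with a trended eBayes step after lmFit, on log2(FPKM + 1) and all 24 libraries in one model with one coefficient per group. Calls are Benjamini-Hochberg adjusted p under 0.05 over 14785 genes. Low genes' changes are understated on this scale. Replicates are separate animals. The limma p-values use 1 spread per gene, pooled over the kidneys of all groups. Kidneys of groups outside a comparison therefore also enter its p-value. The exact ratio tests use only the kidneys of the groups compared. Ratio tests used Python 3.11.15 and numpy 2.4.6. On simulated data for UUO7 against sham (14785 genes), 90 of 100 genes changed by log2 1 and 97 of 100 changed by log2 2 were recovered, with 10 false calls. Count models were not run, as the table holds no counts.

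Genes named are the 5 members, other keratins, up to 4 genes per list of largest called change or defining for it, and the 3 genes most correlated with each member. Gene models with only a clone name were left out of the last. Alternatives were other pseudocounts, scaling, filters, fits on fewer groups, stricter calls, a replicate block, R4W replicate 2 placed in R2W, and leaving out each kidney. Of 14767 genes found in the GENCODE M21 annotation (GRCm38), 92.6% have the deposited coordinates, and Krt8 and Krt18 do not.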

Additional observations from a re-analysis of the deposited data

Results flagged for a closer look

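In 4 of 30 sets of 4 kidneys (5 keratins in 6 groups), 1 kidney lay farther from its fellows than Dixon's 95% limit allows, where chance gives about 1.5. Krt18 in sham replicate 2 was at 36.49 FPKM and Krt19 in the same kidney at 14.09 FPKM, both far above the other sham kidneys. Krt19 in UUO7 replicate 4 was high, at 118.98 FPKM, and that kidney also had the highest urothelium sum of its group. Krt8 in R4W replicate 4 was low, at 125.43 FPKM.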

How the results depend on the processing

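All 5 keratins were called higher than sham in UUO7, R1W, R2W and R4W whichever kidney was left out. Leaving out single kidneys gave 4 to 5 members called in UUO2 against sham, 4 to 5 in UUO7 against UUO2, 1 to 2 in R1W against UUO7, 2 in R4W against UUO7 and 9 to 12 ratio tests, with 9 when a UUO7 or R4W kidney was left out and 12 when a sham kidney was. When log2 fold changes had to reach 1 in size, the counts were 4 in R1W against sham, without Krt7 (0.97), 3 in UUO7 against UUO2, 0 in R1W against UUO7 and 1 in R4W against UUO7. In UUO7 against UUO2 the count was 4 at an adjusted p under 0.01 and after rescaling. In R1W against UUO7 the count was 0 with a pseudocount of 0.1 or an adjusted p under 0.01, and 2 with only the groups compared, without UUO2 or without R1W replicate 2. In R4W against UUO7 it was 4 with only the groups compared and 3 with a pseudocount of 10, which added Krt18. With only the groups compared, the Krt18 and Krt19 differences stayed at -0.84 and -0.76. The spread in that fit came from the UUO7 and R4W kidneys alone. Which kidneys outside the comparison moved these calls was not tested. Same-numbered kidneys did not deviate together (mean r between -0.174 and 0.148), and nothing in the labels pairs them. The replicate block left the number of members called unchanged in the 9 comparisons and left 0 of 15 ratio tests, since the exact paired permutation test cannot go below p = 0.125. Differences near 0 changed sign with the kidney left out. Over all kidneys left out in turn, Krt7 lay between -0.163 and 0.056 for R1W against UUO7, between -0.046 and 0.082 for R4W against UUO7 and between -0.035 and 0.184 for R4W against R1W, and Krt19 from -0.053 to 0.436 in R4W against R1W. The log2 ratios in R4W against UUO7 ranged from -0.051 to 0.067 for Krt18 to Krt8 and from -0.024 to 0.193 for Krt19 to Krt8, and Krt7 to Krt8 in R4W against sham from -0.050 to 0.105. The Krt18 to Krt8 value was 0.0028 with a pseudocount of 1 and 0.067 with R4W replicate 2 placed in R2W. Depth is unknown in UUO2, and low levels such as Krt20 in sham rest on few fragments.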
